A study of Mus musculus with 12 samples.

Results

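The Nduf genes are the nuclear genes named for NADH:ubiquinone oxidoreductase, the first complex of the mitochondrial respiratory chain. Every protein-coding gene whose symbol starts with Nduf was taken, which gave 46 genes of the 56350 gene IDs measured. They comprise 38 structural genes and 8 assembly factors (Ndufaf1 to Ndufaf8). Of these, 45 passed a filter on low values (at least 10 normalised reads in at least 3 libraries), as did 13916 genes in all. The exception was Ndufs3, a core subunit, which is listed at 0 in all 12 libraries although its exons share only 4.04% of their bases with another gene. The subunit is part of every complex I, so this 0 is taken as a listing and no level is given.

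Complex I takes electrons from NADH and passes them over a flavin and a chain of iron-sulfur clusters to ubiquinone, pumping protons across the inner mitochondrial membrane as it does so. It is L-shaped, with a matrix arm that carries the cofactors and a membrane arm that carries the proton pumps. The matrix-arm core is encoded in the nucleus and the membrane-arm core in the mitochondrial genome, while the accessory subunits around both are nuclear. Assembly factors build the complex and leave it. Heart muscle depends on oxidative phosphorylation for its ATP and is rich in these proteins.

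The samples were polyadenylated RNA of the left ventricle apex of mice, 3 libraries in each of 4 groups, taken 8 weeks after surgery. Both knockout groups lack the long noncoding RNA lincRNA-p21 (Trp53cor1) in all tissues, and 1 of them had TAC, a surgical narrowing of the aorta that overloads the left ventricle, and the other a sham operation. Both control groups were littermates that the labels call lincRNA-p21 heterozygous, so the controls carry 1 targeted allele too and were likewise split into TAC and sham. Age, sex, strain and the number of animals per library are not given in the labels. The p-values therefore measure the spread between these libraries.

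Each library held 10323605 to 13238934 reads, of which 12.5% to 20.0% fell on mitochondrial genes. Trp53cor1 had 0 reads in all 6 knockout libraries, against 4, 0 and 3 reads in the control TAC libraries and 2, 0 and 2 reads in the control sham libraries, so at this depth its count did not tell every library's genotype. All 10 cardiomyocyte markers tested were expressed in every group. On the second principal component of all genes, control sham replicate 3 lay at -46.8, far from the other 2 control sham libraries at 5.63 and 8.75. In bulk RNA, fewer heart muscle cells and less RNA per cell cannot be told apart.

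Promoters of core subunits are shown for the letters they hold, and their part in the changes given below was not tested. RefSeq promoter windows (GRCm38.p6, 250 bases before to 50 after the start) were held for 40 of the 46 genes. The bases printed are those before the start that overlap no annotated exon, for 3 core subunits whose transcripts fell with TAC in controls. Ndufs7 fell too, but its window held no exon-free stretch long enough to print. Capitals mark matches to the motifs searched. Ndufv1 lies at chr19:4012807-4013005 (minus strand), Ndufs8 at chr19:3912775-3913024 (minus strand) and Ndufv2 at chr17:66101560-66101809 (minus strand).
Ndufv1: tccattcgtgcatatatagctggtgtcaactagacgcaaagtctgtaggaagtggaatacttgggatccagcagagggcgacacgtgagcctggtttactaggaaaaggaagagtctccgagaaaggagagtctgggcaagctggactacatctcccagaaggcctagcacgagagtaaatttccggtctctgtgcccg
Ndufs8: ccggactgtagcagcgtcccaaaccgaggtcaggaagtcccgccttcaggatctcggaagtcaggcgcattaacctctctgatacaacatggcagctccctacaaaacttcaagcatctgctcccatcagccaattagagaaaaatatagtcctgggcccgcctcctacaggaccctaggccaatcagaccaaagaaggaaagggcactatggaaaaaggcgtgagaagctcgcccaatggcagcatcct
Ndufv2: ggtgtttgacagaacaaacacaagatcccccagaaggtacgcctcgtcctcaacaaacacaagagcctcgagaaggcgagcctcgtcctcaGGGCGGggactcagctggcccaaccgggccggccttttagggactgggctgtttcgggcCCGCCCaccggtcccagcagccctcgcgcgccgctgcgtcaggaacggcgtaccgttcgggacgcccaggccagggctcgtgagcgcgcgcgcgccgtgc
The capitals in Ndufv2 are GC boxes (GGGCGG, 1 on each strand), the letters that SP1 is known to bind. Neither of the other stretches holds a match.

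Over the whole windows, 6 strings were searched on both strands. YY1's AAGATGGC was found in 7 of the 33 structural genes with a window (21.2%), among them Ndufs4, Ndufs6, Ndufs7 and Ndufa9, against 3.19% of all 27025 genes with a window. The NRF1 core string GCGCATG, part of a palindrome bound by a regulator of respiratory genes, was in 5 structural genes (15.2%), against 4.41% of all genes. The full NRF1 palindrome, which contains that core string, was in 1 structural gene (Ndufa11) and in 2 assembly factors (Ndufaf4 and Ndufaf5), against 1.07% of all genes. The ETS string CCGGAAG was in 4 structural genes (12.1%, against 9.93%), the ERR string AAGGTCA in 3 (9.09%, against 5.38%) and the GC box in 15 (45.5%, against 38.2%). A match describes the letters of these windows and is not a measured site.

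Most structural genes had higher levels per kilobase of transcript than the assembly factors, with some overlap. In control sham hearts, Ndufa4 had the highest level, 27394 ± 4551 normalised reads per kilobase (SD, n = 3), followed by Ndufa5 at 20099 ± 4379 and Ndufa3 at 16433 ± 3661. The SDs are those between libraries, and within each library this order held, in 12 of 12. Ndufa4 was first taken for a complex I subunit and is now placed in complex IV, and Ndufa5 and Ndufa3 are accessory subunits of the matrix and membrane arms. Among the core subunits, Ndufs7, which lies at the ubiquinone site, had 10004 ± 2037, and Ndufs1, the large iron-sulfur subunit, had 3183 ± 842. Of the 8 assembly factors, 7 lay between 158 ± 39.2 (Ndufaf4) and 404 ± 48.6 (Ndufaf2), and Ndufaf8 had 1099 ± 257. Only 4 structural genes with a level were below Ndufaf8, namely Ndufs5, Ndufab1, Ndufa4l2 and Ndufb4. Processed pseudogenes of Ndufa11, Ndufab1, Ndufb4 and Ndufs6 are annotated under Nduf symbols. The handling of reads that fit several places is not given in the sources used here, so the levels of these 4 genes are uncertain. Pseudogenes under other symbols were not looked for, so the levels of further genes may be uncertain as well.

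In controls, TAC lowered nearly the whole structural set. Of 37 structural genes tested, 34 fell and none rose with TAC against sham (limma-trend, Benjamini-Hochberg adjusted p up to 0.05 over all genes), where 10.6% of all genes tested fell and 11.0% rose. Their median log2 change was -0.78, with a range from -1.0 (Ndufa4l2) to 0.02 (Ndufs1), beside a median of 0.01 over all genes. All 3 control TAC libraries lay below all 3 control sham libraries for 36 of the 37, which was so for 17.7% of all genes tested. Summed over structural genes, the share of reads was 1.02%, 1.02% and 1.11% in control TAC libraries and 1.41%, 1.68% and 2.08% in control sham libraries.

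**Figure D1:**
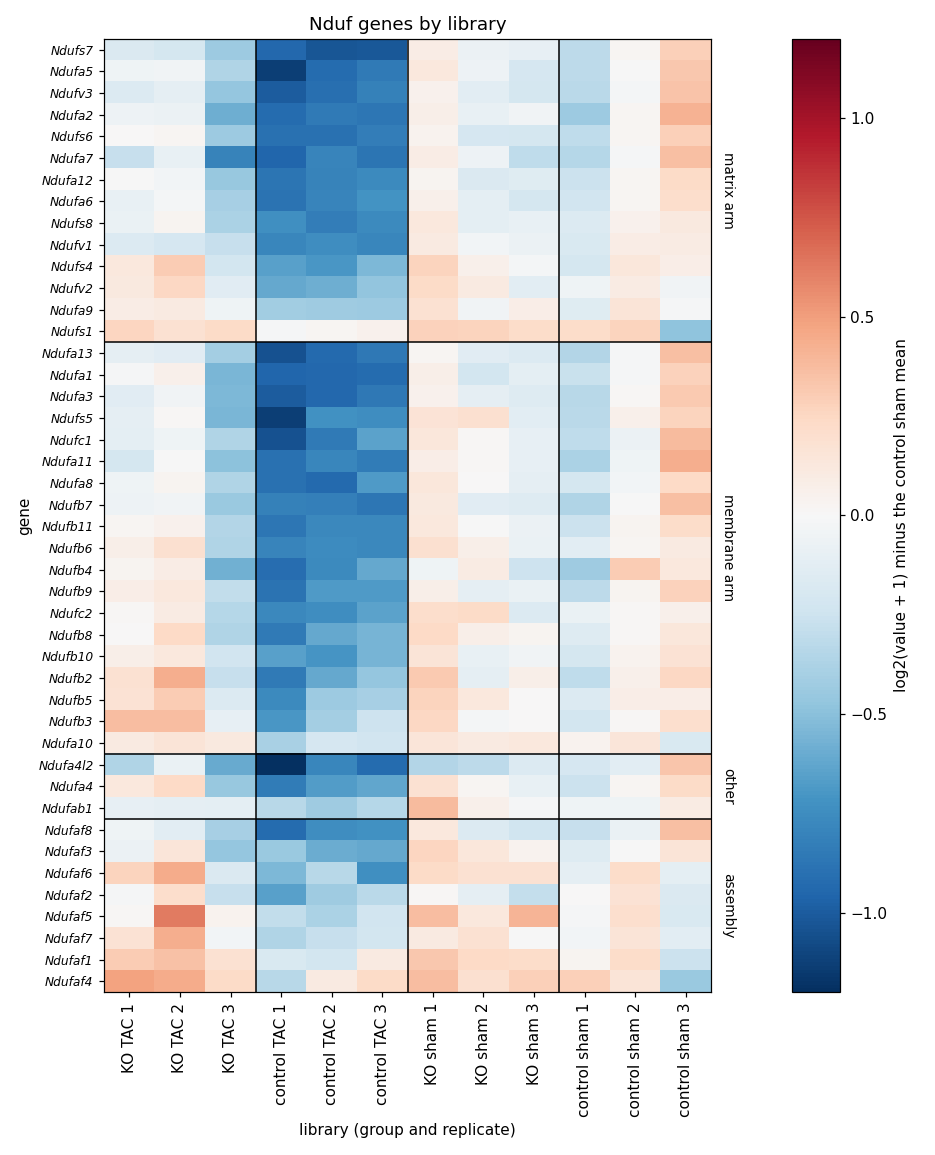
Log2(value + 1) of Nduf genes (rows) in 12 libraries (columns), as the difference from the control sham mean; blue is lower and red is higher. The 3 control TAC columns are blue for nearly every structural gene, with library medians of -0.87, -0.77 and -0.72, and KO TAC replicate 3 is the only KO TAC library with a median (-0.36) well below 0.

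Core subunits of the matrix arm were among the genes that fell. Ndufv1, which holds the flavin and takes electrons from NADH, had 7900, 8097 and 7875 normalised reads in control TAC libraries and 11933, 14413 and 14570 in control sham libraries. The groups did not overlap, and the log2 change was -0.77 ± 0.12 (SE; adjusted p = 0.000657, limma-trend). Ndufs7, which carries the last iron-sulfur cluster before ubiquinone, had 3890, 3680 and 3705 normalised reads in control TAC libraries and 6022, 7618 and 9110 in control sham libraries. Every control TAC library was below every control sham library, with a log2 change of -0.99 ± 0.14 (adjusted p = 0.000444, limma-trend), the smallest p of the structural genes.

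Ndufs8, another iron-sulfur subunit, had 2878, 2696 and 2811 normalised reads in control TAC libraries and 4271, 4943 and 5181 in control sham libraries, without overlap (log2 change -0.78 ± 0.13, adjusted p = 0.00134, limma-trend). Ndufv2, the iron-sulfur partner of Ndufv1, had 5056, 5137 and 5566 in control TAC libraries and 7424, 8248 and 7507 in control sham libraries (-0.56 ± 0.13, adjusted p = 0.00843). In both every control TAC library was below every control sham library. Ndufs1, also a core subunit, did not pass the test. It had 7933, 8163 and 8331 normalised reads in control TAC libraries and 9330, 9669 and 5736 in control sham libraries, so that 1 control sham library, replicate 3, was below all control TAC libraries and the other 2 above them. Its log2 change was 0.02 ± 0.16 (adjusted p = 0.942) with all libraries and -0.22 without control sham replicate 3.

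**Figure D2:**
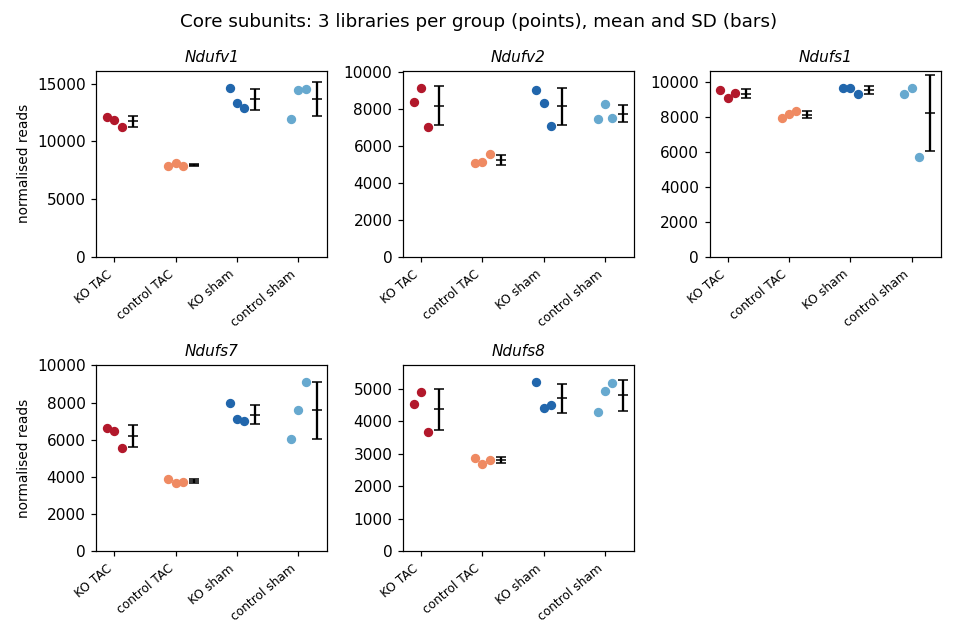
Normalised reads (linear axis from 0) of 5 core subunits in KO TAC, control TAC, KO sham and control sham hearts; points are libraries and bars the mean with SD (n = 3). Control TAC points lie below all other groups except for Ndufs1, where control sham replicate 3 (5736) is lowest.

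Genes of both arms fell. In the matrix arm 14 of 15 genes tested fell, with a median log2 change of -0.80, and in the membrane arm 17 of 19 fell, with a median of -0.77. Ndufa5, an accessory subunit of the matrix arm, had 2840, 3291 and 3458 normalised reads in control TAC libraries and 5027, 6192 and 7775 in control sham libraries, without overlap (log2 change -0.97 ± 0.16, adjusted p = 0.000987, limma-trend). Ndufa13, also known as Grim19, spans the membrane at the foot of the matrix arm. It had 3424, 3699 and 3892 in control TAC libraries and 5545, 7010 and 9041 in control sham libraries (-0.94 ± 0.16, adjusted p = 0.001), though 30.0% of its exon bases also lie in Tssk6 on the opposite strand and whether reads were counted by strand is not stated in these sources. The 2 membrane-arm genes that did not pass were Ndufb3 (-0.45 ± 0.16, adjusted p = 0.058) and Ndufa10 (-0.27 ± 0.12, adjusted p = 0.108), both of which still had every control TAC library below every control sham library.

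The structural list holds 3 special genes. Ndufa4 of complex IV had 6872, 7694 and 7950 normalised reads in control TAC libraries and 10268, 12502 and 14377 in control sham libraries (log2 change -0.71 ± 0.17, adjusted p = 0.0089, limma-trend). Its paralogue Ndufa4l2, known in other tissues as a gene induced by hypoxia, was far less abundant, with 119, 170 and 154 in control TAC libraries and 255, 269 and 369 in control sham libraries (-1.0 ± 0.18, adjusted p = 0.00179). Ndufab1, the mitochondrial acyl carrier protein, also serves fatty acid and lipoic acid synthesis. It had 539, 506 and 535 in control TAC libraries and 655, 658 and 729 in control sham libraries, the smallest fall of those that passed (-0.37 ± 0.12, adjusted p = 0.0448). That call was lost in 9 of the 12 fits that left out 1 library.

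Fewer assembly factors passed. Of 8, 3 fell and none rose with TAC in controls, where 10.6% of all genes tested fell, and their median log2 change was -0.39. For 6 of them all control TAC libraries were below all control sham libraries, as for 17.7% of all genes tested. Ndufaf8, a partner of Ndufaf5, had 243, 274 and 278 normalised reads in control TAC libraries and 380, 436 and 592 in control sham libraries (-0.80 ± 0.17, adjusted p = 0.00384, limma-trend). Ndufaf3, which acts early on the ubiquinone-binding module, had 331, 300 and 296 in control TAC libraries and 407, 450 and 504 in control sham libraries (-0.55 ± 0.15, adjusted p = 0.0181). Ndufaf6 had 144, 167 and 126 in control TAC libraries and 195, 245 and 194 in control sham libraries (-0.54 ± 0.17, adjusted p = 0.0367). All 3 were lower in every control TAC library than in any control sham library. Of the 12 fits that left out 1 library, the call of Ndufaf6 was lost in 7, that of Ndufaf3 in 2 (without control TAC replicate 2 or 3) and that of Ndufaf8 in 0, and the count of assembly factors that fell ran from 1 (without control TAC replicate 3) to 4 (without control sham replicate 3 or KO TAC replicate 3).

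The other 5 assembly factors did not pass. Ndufaf2, a paralogue of the subunit Ndufa12 that holds its place during assembly, had 142, 166 and 179 normalised reads in control TAC libraries and 225, 252 and 198 in control sham libraries (-0.47 ± 0.16, adjusted p = 0.0517); 65.6% of its exon bases also lie in a gene on the opposite strand. Ndufaf5, which hydroxylates Ndufs7, had 217, 205 and 227 in control TAC libraries and 264, 308 and 235 in control sham libraries (-0.30 ± 0.17). Ndufaf7, a methyltransferase of complex I assembly, had 249, 263 and 274 in control TAC libraries and 312, 355 and 293 in control sham libraries (-0.28 ± 0.14). In these 3 the groups did not overlap, unlike in Ndufaf1 and Ndufaf4. Ndufaf1, a factor of membrane-arm assembly, had 478, 467 and 586 in control TAC libraries and 557, 633 and 454 in control sham libraries (-0.10 ± 0.14). Ndufaf4, the partner of Ndufaf3, had 447, 606 and 659 in control TAC libraries and 683, 627 and 413 in control sham libraries (0.00 ± 0.18, and -0.40 once the trend over length and GC content described next was removed).

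**Figure D3:**
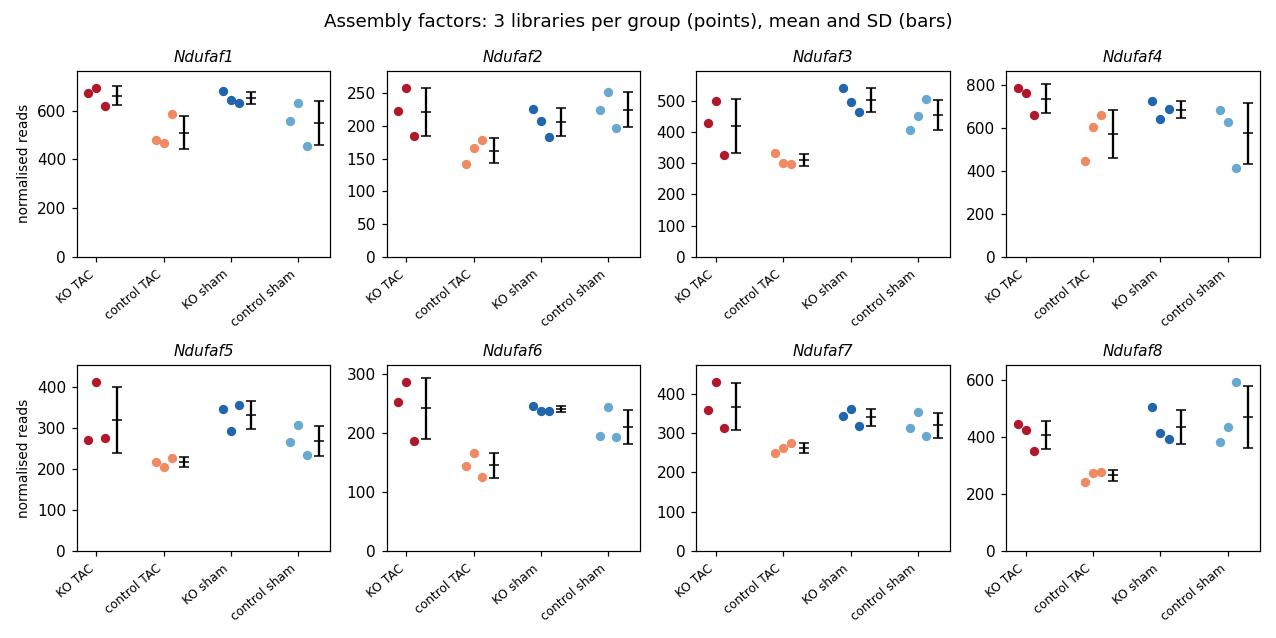
Normalised reads (linear axis from 0) of the 8 assembly factors in KO TAC, control TAC, KO sham and control sham hearts; points are libraries and bars the mean with SD (n = 3). Control TAC points all lie below control sham for 6 genes, while for Ndufaf1 and Ndufaf4 they overlap control sham, where replicate 3 is lowest (454 and 413).

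Transcript length moved with the same libraries. The structural genes have short transcripts, with a median of 680 nt against 2470 nt over all genes tested. For each library, the difference from the mean of all 12 libraries was set against transcript length over all genes. In control TAC libraries this difference rose with length (Spearman rho 0.26 to 0.37 across genes, which are not independent). In KO TAC replicates 1, 2 and 3 rho was -0.26, -0.33 and 0.13. It was -0.29 to -0.04 in KO sham libraries and -0.28 to 0.13 in control sham libraries. With GC content in place of length, rho was -0.34 to -0.23 in control TAC libraries and -0.24 to -0.03 in KO TAC libraries. In KO sham libraries it was 0.17 to 0.20, and in control sham libraries 0.02 to 0.47. The changes can also be set beside those of other genes of like length. Between 500 and 1000 nt, 19 of 20 structural genes fell with a median log2 change of -0.82, while of 1548 other genes 20.5% fell with a median of -0.25. Below 500 nt all 9 structural genes fell (median -0.80), against 18.6% of 328 other genes (median -0.29). From 1000 to 2000 nt all 6 fell (median -0.63), against 17.0% of 3487 others (median -0.16). The 2 longest, Ndufs1 and Ndufa10, did not pass. A trend over length and GC content was then taken out of every library. With it removed, 30 structural genes still fell (median -0.52, limma-trend), where 4.8% of all genes did. No assembly factor passed (median -0.31), and 5 had an unadjusted p under 0.05 (limma-trend). Before the removal 4 had, as had 4940 of the 13916 genes tested, and the all-gene count after it is not given here. The removal was not complete, as rho with length was then 0.03 to 0.04 in control TAC libraries and -0.06 to 0.04 over all 12.

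**Figure D4:**
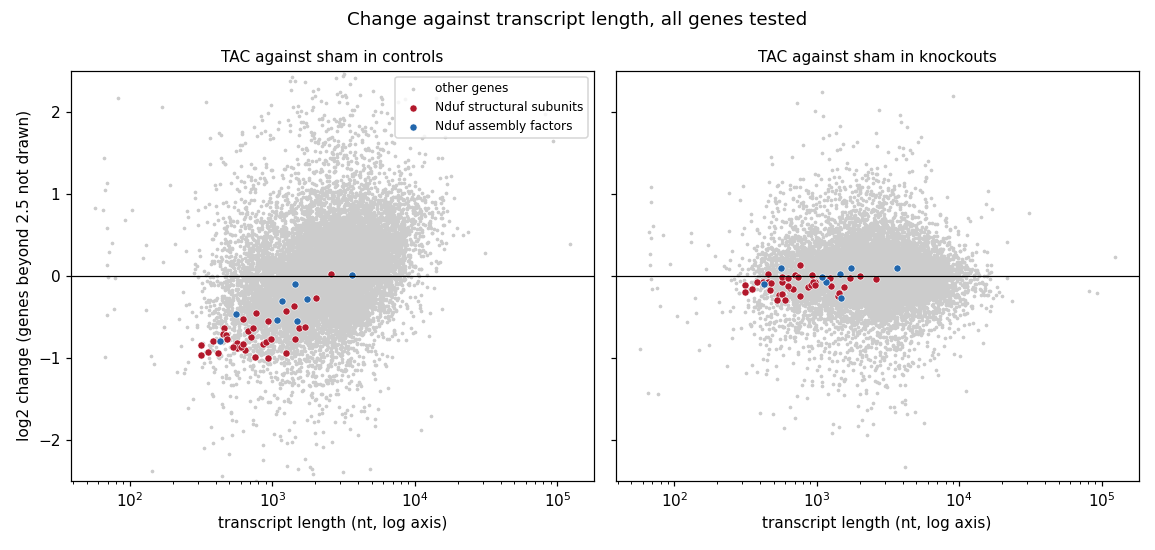
Log2 change with TAC (y axis) against transcript length (x axis, log scale) for all genes tested, in controls (left) and in knockouts (right); grey points are other genes, red points structural genes and blue points assembly factors. In controls the structural genes lie below most other genes of their length (median -0.82 against -0.25 between 500 and 1000 nt), while in knockouts they sit close to 0 (median -0.11).

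In knockouts, no Nduf gene passed the test with TAC against sham. The structural median was -0.11, from -0.30 (Ndufa7) to 0.14 (Ndufb3), and 33 of 37 were below 0. None of the 45 had an unadjusted p under 0.05 in limma-trend, where 929 of the 13916 genes tested did. None passed in edgeR, DESeq2 or voom, and of all genes tested, 0.00719% passed in limma-trend. Over the 37 structural genes, the 95% intervals of the log2 change ran from -0.70 to 0.48 at their outermost. Of the structural genes, 3 had all KO TAC libraries below all KO sham libraries (Ndufv1, Ndufs7 and Ndufab1), against 8.87% of all genes tested.

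The levels behind this were as follows. Ndufv1 had 12113, 11847 and 11238 normalised reads in KO TAC libraries and 14647, 13311 and 12925 in KO sham libraries (log2 change -0.21, 95% interval -0.46 to 0.04). Ndufs7 had 6632, 6476 and 5540 in KO TAC libraries and 7964, 7099 and 6993 in KO sham libraries (-0.24, -0.55 to 0.06). Ndufab1 had 636, 631 and 628 in KO TAC libraries and 884, 707 and 671 in KO sham libraries (-0.24, -0.51 to 0.02). In all 3 the KO TAC libraries lay just under the KO sham libraries, and the intervals took in 0. Ndufa7, an accessory subunit of the matrix arm, had 2312, 2632 and 1614 in KO TAC libraries and 2987, 2692 and 2267 in KO sham libraries, with overlap, and Ndufb3 had 2549, 2541 and 1838 in KO TAC libraries and 2333, 1939 and 1977 in KO sham libraries, also with overlap. KO TAC replicate 3 was the lowest of its group for each of these 5 genes. Over all structural genes its median difference from the control sham mean was -0.36, where KO TAC replicates 1 and 2 had -0.02 and 0.04.

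After sham surgery, knockouts did not differ detectably from controls in any Nduf gene. The structural median log2 change, knockout against control, was 0.01 and that of the assembly factors 0.17. All 45 genes had overlapping groups. Of all genes tested, 4.68% had every KO sham library below and 4.94% every one above the control sham libraries. None of the 45 had an unadjusted p under 0.05 in limma-trend, where 604 of the 13916 genes tested did. None passed in edgeR, DESeq2 or voom, and 0.0% of all genes tested passed in limma-trend. The lowest change was that of Ndufa4l2, with 230, 236 and 261 normalised reads in KO sham libraries and 255, 269 and 369 in control sham libraries (-0.28, 95% interval -0.66 to 0.11). The highest among structural genes was that of Ndufs1, with 9696, 9679 and 9330 in KO sham libraries and 9330, 9669 and 5736 in control sham libraries (0.25, -0.08 to 0.59).

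After TAC, the knockouts had more of nearly every structural transcript than the controls. Of 37 structural genes, 33 were higher and none lower (limma-trend, adjusted p up to 0.05), where 4.1% of all genes tested were higher and 4.13% lower. The median log2 change was 0.65, from 0.20 (Ndufs1) to 0.82 (Ndufa5), and 36 of 37 had every KO TAC library above every control TAC library, against 15.6% of all genes tested. Of the 8 assembly factors, 3 were higher (Ndufaf6, Ndufaf7 and Ndufaf8), with a median of 0.46 over the 8, and 6 had no overlap. The control TAC libraries are shared with the comparison of TAC against sham in controls, so the 2 sets of changes are not independent.

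**Figure D5:**
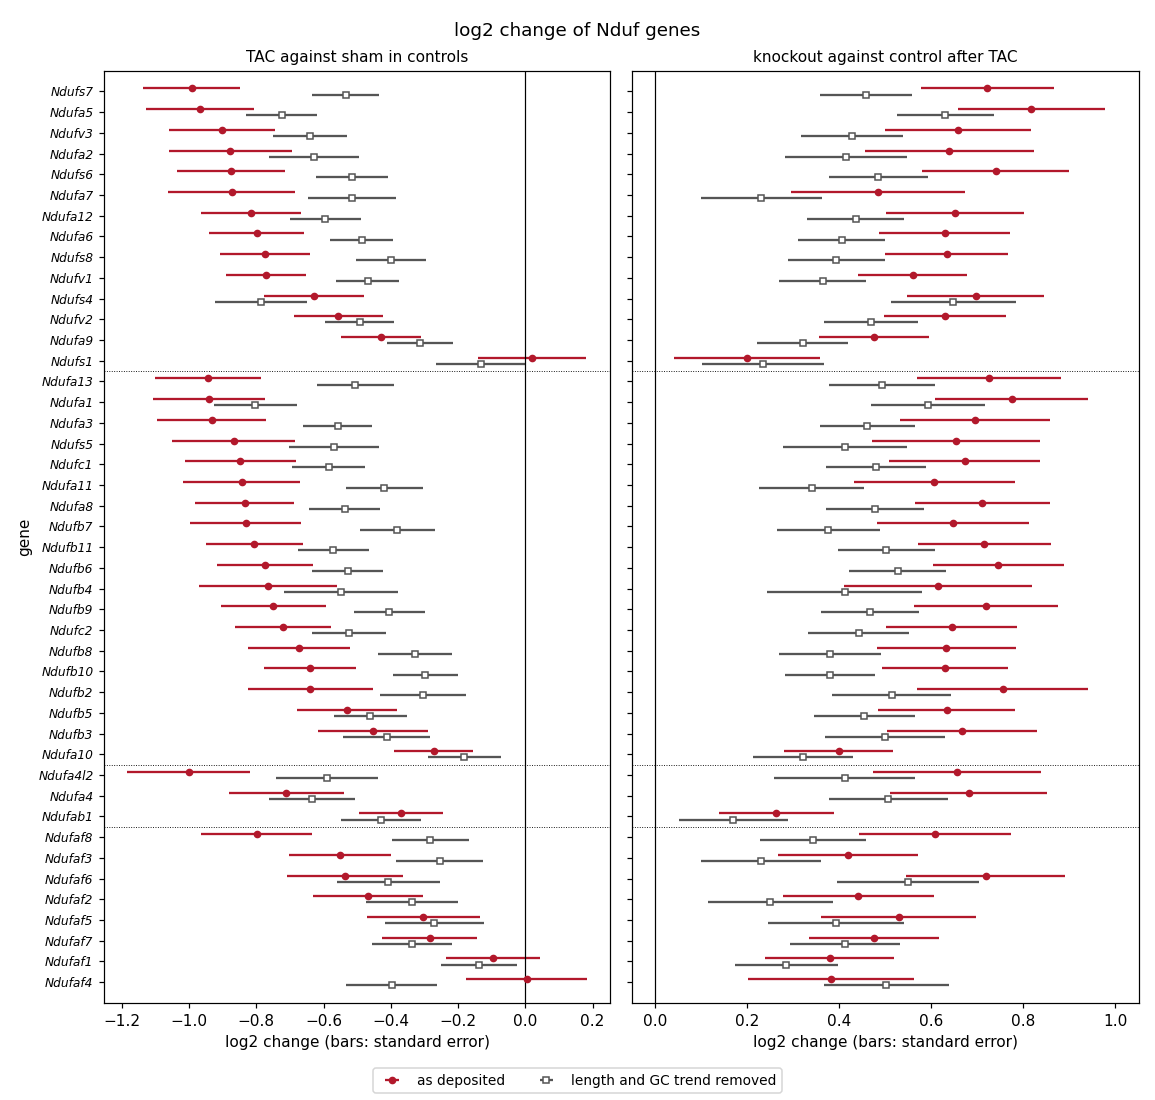
Log2 change of Nduf genes for TAC against sham in controls (left) and for knockout against control after TAC (right), as deposited (red circles) and after a trend over transcript length and GC content was removed (open squares); bars are standard errors. All points on the right lie above 0 and nearly all on the left below 0, with medians of the structural genes at 0.65 and -0.78 as deposited and at 0.44 and -0.52 with the trend removed.

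Ndufa5 had 6021, 6052 and 4852 normalised reads in KO TAC libraries and 2840, 3291 and 3458 in control TAC libraries, without overlap (log2 change 0.82 ± 0.16, adjusted p = 0.0079, limma-trend). Ndufs7 had 6632, 6476 and 5540 in KO TAC libraries and 3890, 3680 and 3705 in control TAC libraries (0.72 ± 0.14, adjusted p = 0.00892). Ndufb11, an accessory subunit of the membrane arm, had 4495, 4560 and 3462 in KO TAC libraries and 2415, 2573 and 2580 in control TAC libraries (0.72 ± 0.14, adjusted p = 0.00903). In each the lowest KO TAC library was replicate 3, which was still above all control TAC libraries. Of the other core subunits, Ndufv2 had 8346, 9139 and 7028 in KO TAC libraries and 5056, 5137 and 5566 in control TAC libraries (0.63 ± 0.13, adjusted p = 0.0111). Ndufs8 had 4518, 4900 and 3675 in KO TAC libraries and 2878, 2696 and 2811 in control TAC libraries (0.63 ± 0.13, adjusted p = 0.0112). Ndufv1 was higher as well, by 0.56 ± 0.12 (adjusted p = 0.0112). Ndufs1 did not pass, with 9577, 9084 and 9386 in KO TAC libraries and 7933, 8163 and 8331 in control TAC libraries (0.20 ± 0.16, adjusted p = 0.467), although its groups did not overlap.

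The 3 other structural genes that did not pass were Ndufab1 (0.26 ± 0.12, adjusted p = 0.202), Ndufa7 (0.48 ± 0.19, adjusted p = 0.117) and Ndufb4 of the membrane arm. Of these, Ndufa7 alone had overlapping groups, with 2312, 2632 and 1614 normalised reads in KO TAC libraries and 1452, 1621 and 1523 in control TAC libraries. Ndufaf6, the assembly factor with the highest change, had 253, 287 and 186 in KO TAC libraries and 144, 167 and 126 in control TAC libraries (0.72 ± 0.17, adjusted p = 0.0204). Ndufaf8 had 445, 423 and 350 in KO TAC libraries and 243, 274 and 278 in control TAC libraries (0.61 ± 0.17, adjusted p = 0.0333), and Ndufaf7 had 359, 430 and 312 in KO TAC libraries and 249, 263 and 274 in control TAC libraries (0.47 ± 0.14, adjusted p = 0.0475). Ndufaf5 was close to the threshold (0.53 ± 0.17, adjusted p = 0.0612), and Ndufaf1, Ndufaf2, Ndufaf3 and Ndufaf4 had changes of 0.38 to 0.44.

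These counts rest on few libraries. Without KO TAC replicate 1 or without replicate 2, none of the 37 structural genes passed; without control TAC replicate 1 or replicate 2, 7 passed; and without KO TAC replicate 3, 35 passed, while the structural median stayed between 0.56 and 0.79 in all 12 fits that left out a library. The 3 assembly factors became 0 without KO TAC replicate 1 or 2 or control TAC replicate 1 or 3, 1 without control TAC replicate 2 or KO sham replicate 2, and 6 without KO TAC replicate 3. With the length and GC trend removed, 25 structural genes were higher (median 0.44), where 2.11% of all genes were, and 1 assembly factor (Ndufaf4).

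The difference between the TAC effects, knockout minus control, was tested directly. Its structural median was 0.66 on the log2 scale, from -0.05 (Ndufs1) to 0.93 (Ndufa4l2), but no Nduf gene passed in limma-trend, where 0.309% of all genes tested did. The lowest adjusted p was 0.0963, for Ndufs6 (0.86 ± 0.23) and Ndufa5 (0.86 ± 0.23). Ndufs6 is an accessory subunit of the matrix arm. It had 4554, 4609 and 3339 normalised reads in KO TAC libraries, 2428, 2436 and 2543 in control TAC libraries, 4668, 3951 and 3905 in KO sham libraries and 3660, 4605 and 5514 in control sham libraries, so the control TAC group alone stood apart. At an unadjusted p under 0.05 in limma-trend there were 34 structural genes and 3 assembly factors, beside 2292 of the 13916 genes tested. Of the structural genes, edgeR called none, DESeq2 20 and voom 34. Limma-trend called 21 of them without control sham replicate 1 and 13 without KO TAC replicate 3. Over all genes tested, limma-trend called 43 with all libraries and 755 without control sham replicate 1, so that rise was not confined to Nduf genes. The all-gene counts of the other tools are not given here. The difference of the TAC effects between genotypes thus passed or missed the threshold by the tool and by single libraries.

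The mitochondrially encoded subunits form the membrane-arm core. Of the 7, mt-Nd1, mt-Nd2, mt-Nd4, mt-Nd5 and mt-Nd6 were tested, while mt-Nd4l is listed at 0 in every library and mt-Nd3 at or near 0. With TAC in controls, none of the 5 fell and mt-Nd5 rose (log2 change 0.72 ± 0.23, adjusted p = 0.0385, limma-trend), with a median of -0.02. It had 210764, 199050 and 215745 normalised reads in control TAC libraries and 208966, 121755 and 80294 in control sham libraries, so control sham replicate 1 lay within the control TAC range. The call was lost in 11 of the 12 fits that left out 1 library, and the change was 0.39 without control sham replicate 3. With the length and GC trend removed, mt-Nd5 did not pass (0.42, adjusted p = 0.129) and mt-Nd4 fell (-0.50, adjusted p = 0.0105), so both calls depended on that step. mt-Nd4 had 207859, 214172 and 226018 in control TAC libraries and 279321, 256045 and 232758 in control sham libraries (-0.24 ± 0.13, adjusted p = 0.186), without overlap. After TAC, it was higher in knockouts, with 323928, 346807 and 382361 in KO TAC libraries and 207859, 214172 and 226018 in control TAC libraries (0.70 ± 0.13, adjusted p = 0.00607), and the other 4 did not pass. The mitochondrial transcripts vary with the share of mitochondrial reads per library, and a difference between nuclear and mitochondrial genes in their response was not tested.

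Complex I is also built by factors with other names, and 12 of them were tested. With TAC in controls 2 fell, Ecsit (log2 change -0.64 ± 0.12, adjusted p = 0.00253, limma-trend) and Dmac1 (-0.64 ± 0.16, adjusted p = 0.0105), both of which act on the membrane arm. This share is near the 10.6% of all genes tested that fell. The median of the 12 was -0.15. Ecsit had 1396, 1427 and 1231 normalised reads in KO TAC libraries, 867, 973 and 872 in control TAC libraries, 1622, 1438 and 1354 in KO sham libraries and 1276, 1454 and 1502 in control sham libraries, so the control TAC libraries were below all others. The same 2 genes were the 2 of 12 that were higher in knockouts than in controls after TAC (Ecsit by 0.58 ± 0.12, Dmac1 by 0.69 ± 0.16, adjusted p = 0.0115 and 0.0167), calls that were lost in 3 and 4 of the 12 fits that left out 1 library. Of all genes tested, 4.1% were higher there, and both comparisons share the control TAC libraries. Of the 4 subunits of complex II, the succinate dehydrogenase that feeds ubiquinone beside complex I, Sdhb and Sdhc fell with TAC in controls (-0.58 ± 0.13 and -0.55 ± 0.12), while Sdha, the flavoprotein, and Sdhd did not pass. Once the trend over length and GC content was taken out, Sdhb (-0.29) and Sdhc (-0.25) also missed the threshold. Nuclear subunits of the other complexes fell in 7 of 8 genes tested for complex III, 13 of 13 for complex IV and 12 of 14 for complex V, beside 10.6% of all genes tested, with median changes of -0.63, -0.85 and -0.72. With the trend removed, 5 of 8, 11 of 13 and 8 of 14 fell, beside 4.8% of all genes tested, with medians of -0.43, -0.49 and -0.42. Whether complex I differed from these was not tested.

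Of 13 regulators of nuclear or mitochondrial respiratory genes, 3 rose and 2 fell with TAC in controls, where 11.0% of all genes tested rose and 10.6% fell. Ppargc1a and Ppargc1b, coactivators known to drive mitochondrial gene expression, had changes opposite in sign to the structural genes. Ppargc1b had 176, 166 and 179 normalised reads in KO TAC libraries, 413, 444 and 447 in control TAC libraries, 273, 380 and 261 in KO sham libraries and 268, 176 and 169 in control sham libraries, so the control TAC libraries were above all others. Its log2 change was 1.12 ± 0.18 with TAC in controls (adjusted p = 0.000893, limma-trend) and -1.32 ± 0.18 for knockout against control after TAC (adjusted p = 0.00101). Ppargc1a rose with TAC in controls by 1.08 ± 0.26 (adjusted p = 0.012) and was lower in knockouts after TAC (-1.16 ± 0.26, adjusted p = 0.0194), calls that were lost in 1 (without control sham replicate 3) and 3 of the 12 fits that left out 1 library. The third to rise was Gabpa, an ETS factor of respiratory gene promoters (0.65 ± 0.17, adjusted p = 0.0144), and those that fell were Esrra, a nuclear receptor partner of the Ppargc1 coactivators (-0.43 ± 0.11, adjusted p = 0.0129), and Polrmt, the mitochondrial RNA polymerase (-0.43 ± 0.13, adjusted p = 0.0236). With the length and GC trend removed, Ppargc1a and Ppargc1b still passed in both comparisons, and Gabpa, Esrra and Polrmt did not (adjusted p = 0.0544, 0.913 and 0.348). Nrf1 and Yy1 did not pass in either comparison. Whether any regulator accounts for the Nduf changes was not tested.

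Some lists of cell type marker genes also differed between the groups. The summed level of the 10 cardiomyocyte markers was 1084219 to 1168249 normalised reads in KO TAC libraries, 823519 to 905138 in control TAC libraries, 1138101 to 1218000 in KO sham libraries and 1037432 to 1069856 in control sham libraries. With TAC in controls 5 of the 10 fell and 1 rose (median log2 change -0.38), while with the length and GC trend removed 1 fell and none rose (median -0.09). Of all genes tested, 10.6% fell and 11.0% rose with TAC in controls, and 4.8% fell with the trend removed. These shares also belong beside the marker counts that follow. The sum of 7 fibroblast markers was 9414 to 12561 in KO TAC libraries, 15062 to 16490 in control TAC libraries, 11103 to 11821 in KO sham libraries and 10993 to 13547 in control sham libraries, and 2 of the 7 rose with TAC in controls. Thus control TAC libraries had the lowest cardiomyocyte and the highest fibroblast sums. The 7 mesothelial markers summed to 198 to 416 in KO TAC, 61.5 to 193 in control TAC, 202 to 403 in KO sham and 214 to 548 in control sham libraries, and 5 of them fell with TAC in controls. The 5 erythroid markers summed to 3138 to 10438 in KO TAC, 2403 to 4113 in control TAC, 4489 to 5865 in KO sham and 6154 to 6724 in control sham libraries, and 3 fell with TAC in controls, or 1 with the trend removed. No endothelial or macrophage marker passed in either of these comparisons, but 1 of the 7 endothelial markers fell with TAC in controls once the trend was removed. Of the 5 brown adipocyte markers, Ucp1, the defining gene of brown fat, was at 0 in all libraries and 3 were tested. Their list summed to 677 to 908 in KO TAC, 1062 to 1362 in control TAC, 851 to 951 in KO sham and 557 to 906 in control sham libraries. Of the 3, Dio2, which activates thyroid hormone, rose with TAC in controls (log2 change 4.38 ± 0.38, adjusted p = 4.0e-06, limma-trend) and was lower in knockouts than in controls after TAC (-2.91 ± 0.38, adjusted p = 0.000687). The other 2, Cidea and Ppara, did not pass. The 5 white adipocyte markers summed to 6918 to 9387 in KO TAC, 4903 to 7127 in control TAC, 6217 to 8717 in KO sham and 7195 to 9588 in control sham libraries, and 1 of the 3 tested fell with TAC in controls. The part of these cell types in the Nduf changes was not tested.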

How the data were processed

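From left ventricle apex, 12 stranded libraries of polyadenylated RNA were made (3 per group), per the labels' protocols. STAR, SAMtools, featureCounts and GRCm38.p6 are named in the submitters' processing notes; the sources used here give neither their versions nor the annotation and strand setting. Signal values were deposited. From the values themselves, these are reads per gene divided by 1 size factor per library (100% of values whole within 0.01 after rescaling), so read counts were recovered; the text calls the values normalised reads. Of 56350 IDs, 55480 matched GENCODE M21. The deposited unit is not a raw count, so the main test was limma-trend (limma 3.58.1, R 4.3.3, robust) on log2(value + 1), with 4 group means over 12 libraries and 5 contrasts, on the 13916 genes that reached 10 in 3 or more libraries. P-values were Benjamini-Hochberg adjusted over all genes tested (threshold 0.05). A fold change on this scale understates the change of low genes.

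edgeR 4.0.16 (quasi-likelihood), DESeq2 1.42.0 and voom were run on the recovered reads as alternatives, and the fit was tested on simulated data. Transcript length is the median of a gene's basic protein-coding transcripts. The length and GC trend was fitted by loess (span 0.5) in each library. Levels between genes are per kilobase of that length. The members, lists and tests were chosen with earlier results of these data known. Values per library are given, though not for every comparison, for the core subunits, the assembly factors, Ndufa4, Ndufa4l2 and Ndufab1. They are also given for members with the extreme changes and for some of those with the smallest p of a contrast. Ndufb6, which had the smallest p for knockout against control after TAC, and Ndufa1, Ndufa8, Ndufa10, Ndufb5 and Ndufs5 met that rule, and their values per library are not shown. Ndufa7, Ndufb3 and Ndufb4 where named otherwise, and the genes of the other lists, were singled out after their values were seen. Leaving out each library, scalings, pseudocounts, filters and a replicate block were also tried. Ndufs3 was left out of tests, being listed at 0, and the values of 1 core subunit are not reported here. Precision is limited by 3 libraries per group.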

Additional observations from a re-analysis of the deposited data

How the results depend on the processing

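The direction changed under some alternative for 3 of the genes named. For Ndufs1 the change with TAC in controls (0.02) was -0.021 in edgeR, -0.014 in DESeq2, -0.17 in voom, -0.13 with the length and GC trend removed, with or without a replicate block, and -0.22 to 0.15 when a library was left out. Its difference of TAC effects (-0.05) was 0.15 in voom, 0.037 with the trend removed, with or without the block, and -0.19 to 0.19 when a library was left out. For Ndufaf4 the change with TAC in controls (0.00) was -0.010 in edgeR, -0.0030 in DESeq2, -0.18 in voom, -0.00023 with TMM scaling, -0.0073 with scaling by the total without mitochondrial and Nduf genes, -0.40 with the trend removed, with or without the block, and -0.22 to 0.17 when a library was left out. For Ndufaf1 (-0.10) it was -0.23 to 0.014 when a library was left out. The cause was not tested.

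Of structural genes, 34 fell with TAC in controls (29 to 35 when a library was left out) and 33 were higher in knockouts after TAC (0 to 35). Of assembly factors, 3 fell with TAC in controls (1 to 4; 0 with the trend removed, also with the block), and 3 were higher in knockouts after TAC (0 to 6; 8 in voom; 1 with the trend removed, also with the block). None passed for the difference of TAC effects, where DESeq2 called 20 structural genes, voom 34, no filter 2, and leaving out a library 0 to 21; for assembly factors voom called 3 and leaving out a library 0 to 1. TAC in knockouts and knockout against control after sham gave 0 throughout. The all-gene counts of DESeq2, voom, the fit without a filter and the replicate block are not given here. Their counts are therefore not read as particular to Nduf genes. Over all genes tested, limma-trend called 1549 to 3656 with TAC in controls when a library was left out. It called 202 to 2143 for knockout against control after TAC and 8 to 755 for the difference of TAC effects. With the trend removed and a library left out, an alternative chosen after seeing the data, 19 to 32 structural genes and 0 to 2 assembly factors fell with TAC in controls, 1 to 32 (17, 15 and 16 without KO sham replicates 1, 2 and 3, and 16 without control TAC replicate 3) and 0 to 3 were higher in knockouts after TAC, and 0 to 1 and 0 passed for the difference. Over all genes tested, the same fits called 703 to 1650, 110 to 1294 and 5 to 147 genes.

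Replicate numbers were not used to pair the libraries in the main test, since the labels do not say what a number marks. Over 18 pairs with the same number, correlations of deviations were -0.07 to 0.25, and 3 were over 0.1. Of 12 libraries, 7 correlated best with their own number, so these values do not settle whether a number marks a pair. With the replicate block, 33 structural genes and 4 assembly factors fell with TAC in controls, 32 and 3 were higher in knockouts after TAC, and 0 passed elsewhere. The 3 libraries per group limit what can pass.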

Other observations

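The table also holds 5 Nduf symbols that are not annotated as protein-coding: 4 processed pseudogenes and Ndufb1-ps, which GENCODE M21 lists as a long noncoding RNA from a shared promoter. Ndufb1-ps had 3824, 4290 and 2685 normalised reads in KO TAC libraries, 1784, 2146 and 2361 in control TAC libraries, 3640, 3015 and 3122 in KO sham libraries and 2640, 3334 and 3069 in control sham libraries. Its control TAC libraries were below all others.

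Assembly factors took 0.0279%, 0.0308% and 0.0243% of all reads in KO TAC libraries and 0.0202%, 0.0208% and 0.0233% in control TAC libraries.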
